A study of Homo sapiens with 4 samples.

Results

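Metallothioneins are small, cysteine-rich proteins of the cytosol that bind zinc and copper and buffer the free metal of the cell. Their genes are classic targets of MTF1, a zinc finger transcription factor that takes up zinc when the free metal rises, moves to the nucleus and binds metal response elements in the promoters of its targets. One other target of MTF1 is SLC30A1, the gene of ZnT1, the transporter of the plasma membrane that carries zinc out of the cell. Metallothionein genes also answer to glucocorticoids and to oxidative stress, and zinc handling is of old interest in the prostate, whose normal epithelium accumulates the metal.

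The set described here held 8 genes of the 43622 in the expression table. They were the metallothioneins MT1E, MT1F, MT1G, MT1M, MT1X and MT2A, the zinc exporter SLC30A1 and the regulator MTF1. These genes were chosen by name, with earlier results of these data known. All 8 were in the table. After a filter at a mean of 0.1 TPM over all libraries, 6 were tested, and 5 of these had a mean of at least 1 TPM. MT1E and MT1M did not pass the filter.

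The cells were PC3, an established line from a human prostatic adenocarcinoma. RNA was sequenced in 4 conditions with 3 libraries each: genotype wt with DMSO (Ctrl), genotype wt with 1 µM MLN4924 (MLN), genotype Sh ARF with DMSO (shARF) and genotype Sh ARF with 1 µM MLN4924 (Both), each at 3 days. MLN4924 (pevonedistat) blocks NEDDylation, the attachment of NEDD8 to cullins and other proteins, and the Sh ARF cells carry a stably transduced retroviral shRNA against p14ARF, a tumour suppressor encoded by CDKN2A. The sources name no control shRNA for the wt cells, so the hairpin cannot be told apart from transduction and hygromycin selection; the series text writes 1 mM and knockout where the sample labels give 1 µM and Sh ARF. Nothing says whether the 3 libraries of a condition came from separate cultures, so the p-values measure the spread between these libraries, which may be technical. TPM is a transcript level scaled for length to the same total in every library, and it carries no depth.

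CDKN2A, the target of the hairpin, was listed at 190, 183 and 177 TPM in Ctrl and at 58.2, 58.7 and 60.9 TPM in shARF, a log2 fold change of −1.63 (SE 0.0353, adjusted p = 2.24e-05). A gene level of CDKN2A also counts the transcripts of p16INK4a. The epithelial markers KRT8, KRT18 and EPCAM were above 1 TPM in all 12 libraries, and KLK3, a luminal gene that PC3 cells lack, was listed at 0 in all 12. The leukocyte marker PTPRC did not exceed 0.322 TPM, while the endothelial gene PECAM1 ranged from 0.132 to 12.4 TPM and the fibroblast gene COL1A1 from 3.56 to 19.7 TPM. PECAM1 stood at 11.7 ± 0.770 TPM in Ctrl, at 0.579 ± 0.113 TPM in MLN, at 1.91 ± 0.0427 TPM in shARF and at 0.173 ± 0.0403 TPM in Both (SD, n = 3). COL1A1 stood at 7.27 ± 0.856, 18.2 ± 1.37, 4.04 ± 0.528 and 6.08 ± 0.443 TPM in the same order, so that the genes moved in opposite directions with the drug. Summed, these 3 markers of other cell types were at 18.0 to 20.7 TPM in Ctrl, 17.9 to 20.4 in MLN, 5.42 to 6.55 in shARF and 6.03 to 6.83 in Both. The 3 epithelial markers summed to 356 to 396 TPM in Ctrl, to 259 to 291 in MLN, to 613 to 706 in shARF and to 223 to 236 in Both. Their part in the results that follow was not tested. Correlations between libraries were 0.982 to 0.988 within conditions and 0.820 to 0.958 between them, with no library apart from its own condition.

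The 6 metallothioneins of the set lie together on chromosome 16 of GRCh38, from 56608584 to 56684196, a stretch of 75.6 kb. MT2A comes first (56608584 to 56609497), followed by MT1E (56625475 to 56627112), MT1M (56632659 to 56633981), MT1F (56657731 to 56660698), MT1G (56666730 to 56668065, the only one of the 6 on the minus strand) and MT1X (56682470 to 56684196). The MT2A transcript has 3 exons and 401 bases, and that of MT1X 3 exons and 404 bases. SLC30A1 lies on the minus strand of chromosome 1 from 211571568 to 211579161, with 2 exons, and MTF1 on the minus strand of the same chromosome from 37809574 to 37859592, with 11 exons.

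The promoters of the 2 main metallothioneins and of SLC30A1 are shown because MTF1 acts through them, and because these 3 genes carry the comparisons that follow. Each line gives the 250 bases before the annotated start, in the direction of the gene, from RefSeq (GRCh38.p14). Capitals mark each match to the core of the metal response element, searched as TGCACNC and TGCGCNC on both strands.
MT2A, chr16:56608334-56608583, plus strand: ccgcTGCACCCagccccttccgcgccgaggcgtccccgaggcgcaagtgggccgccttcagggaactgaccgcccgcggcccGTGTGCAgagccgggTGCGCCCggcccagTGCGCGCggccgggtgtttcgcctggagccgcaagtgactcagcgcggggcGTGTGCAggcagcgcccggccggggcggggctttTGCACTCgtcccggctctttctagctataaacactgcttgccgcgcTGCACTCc
MT1X, chr16:56682220-56682469, plus strand: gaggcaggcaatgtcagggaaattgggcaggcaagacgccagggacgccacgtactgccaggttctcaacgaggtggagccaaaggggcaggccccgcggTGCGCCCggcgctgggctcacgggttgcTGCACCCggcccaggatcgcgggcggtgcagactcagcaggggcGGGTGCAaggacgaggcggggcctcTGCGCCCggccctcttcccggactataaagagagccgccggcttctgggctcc
SLC30A1, chr1:211579162-211579411, minus strand: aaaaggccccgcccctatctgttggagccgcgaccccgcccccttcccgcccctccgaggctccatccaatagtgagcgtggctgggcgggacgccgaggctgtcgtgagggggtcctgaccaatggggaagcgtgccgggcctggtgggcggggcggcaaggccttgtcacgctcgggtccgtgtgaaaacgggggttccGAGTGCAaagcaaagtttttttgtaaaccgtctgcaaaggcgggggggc

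The MT2A window held 7 matches, 5 on the strand of the gene and 2 on the other, the nearest between 8 and 2 bases before the start. The MT1X window held 4 matches, 3 on the strand of the gene and 1 on the other. SLC30A1 had 1, on the other strand, 49 to 43 bases before the start. No match overlapped another. Of the 35116 promoter windows of the same length, 24.8% held at least 1 match, 0.37% held at least 4 and 0.031% held at least 7. A single match, as in SLC30A1, was thus common, whereas the counts of MT2A and MT1X were rare. The MTF1 window (chr1:37859593-37859842, minus strand) had 0 matches, which says only that these letters are not in it. MT1E, MT1F, MT1G and MT1M were not matched in the promoter table.

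MT2A, the most abundant of the human metallothioneins here, was at 2446, 1996 and 2377 TPM in Ctrl. It stood at 533, 652 and 647 TPM in MLN, at 749, 769 and 794 TPM in shARF and at 383, 311 and 349 TPM in Both. The 4 conditions did not overlap in any library, and each of the 2 manipulations alone left MT2A well under its level in Ctrl, with Both lowest. The mean level was 2273 ± 242 TPM in the Ctrl libraries, 611 ± 67.2 TPM with the drug, 771 ± 22.6 TPM with the hairpin and 348 ± 36.1 TPM with both (SD, n = 3 libraries each). In such bulk samples, fewer cells with the transcript and less RNA per cell cannot be told apart.

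MT1X, the second metallothionein by level, kept the same order of conditions at a lower level. It was at 114, 89.1 and 104 TPM in Ctrl, at 30.05, 38.07 and 38.6 TPM in MLN, at 43.3, 48.7 and 45.2 TPM in shARF and at 23.6, 17.0 and 19.2 TPM in Both. The lowest shARF library was above the highest MLN library for both MT2A and MT1X, a difference between conditions that share neither genotype nor treatment and that was not tested.

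MT1F was at 17.5, 16.0 and 16.6 TPM in Ctrl and at 4.92, 4.38 and 3.83 TPM in MLN. In the Sh ARF cells it was lower still, at 1.67, 2.71 and 2.52 TPM with DMSO and at 0.317, 0.0804 and 0.232 TPM with the drug. Here the order of the 2 single manipulations was the opposite of that in MT2A and MT1X, since every shARF library lay under every MLN library.

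The remaining metallothioneins were close to the bottom of the scale. MT1G was at 0.417, 0.798 and 0.405 TPM with neither manipulation, at 0.394, 0.802 and 0.201 TPM with the drug, at 0, 0.414 and 0.635 TPM with the hairpin and at 0.200, 0.405 and 0.195 TPM with both, and its 4 conditions overlapped. MT1E was listed above 0 in 5 of 12 libraries, at no more than 0.287 TPM, and at 0 in all 3 shARF libraries. MT1M was listed above 0 in 1 Ctrl library, at 0.166 TPM. Of 15 other metallothionein genes and pseudogenes looked for, 6 were in the table and 0 passed the filter: MT1B, MT1H, MT1HL1 and MT4 were listed at 0 throughout, MT1A reached 0.384 TPM in 1 library and MT3 0.0803 TPM in 1 of its 2.

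SLC30A1 followed another order. The zinc exporter was at 19.0, 19.4 and 20.4 TPM in Ctrl, at 6.74, 7.14 and 8.21 TPM in MLN, at 31.5, 28.7 and 30.2 TPM in shARF and at 8.86, 9.71 and 8.43 TPM in Both. Its highest level was thus in the condition with the hairpin and no drug, where MT2A, MT1X and MT1F were all below Ctrl. The drug-treated libraries of both genotypes formed the low end, and those of MLN and Both did not overlap.

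MTF1 varied least among the 5 members with a mean of at least 1 TPM. It was at 12.9, 10.5 and 11.9 TPM in Ctrl, at 14.7, 14.4 and 17.9 TPM in MLN, at 8.18, 8.73 and 8.33 TPM in shARF and at 14.1, 12.5 and 10.8 TPM in Both. The shARF libraries were the lowest and the MLN libraries the highest, and Ctrl and Both overlapped.

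**Figure D1:**
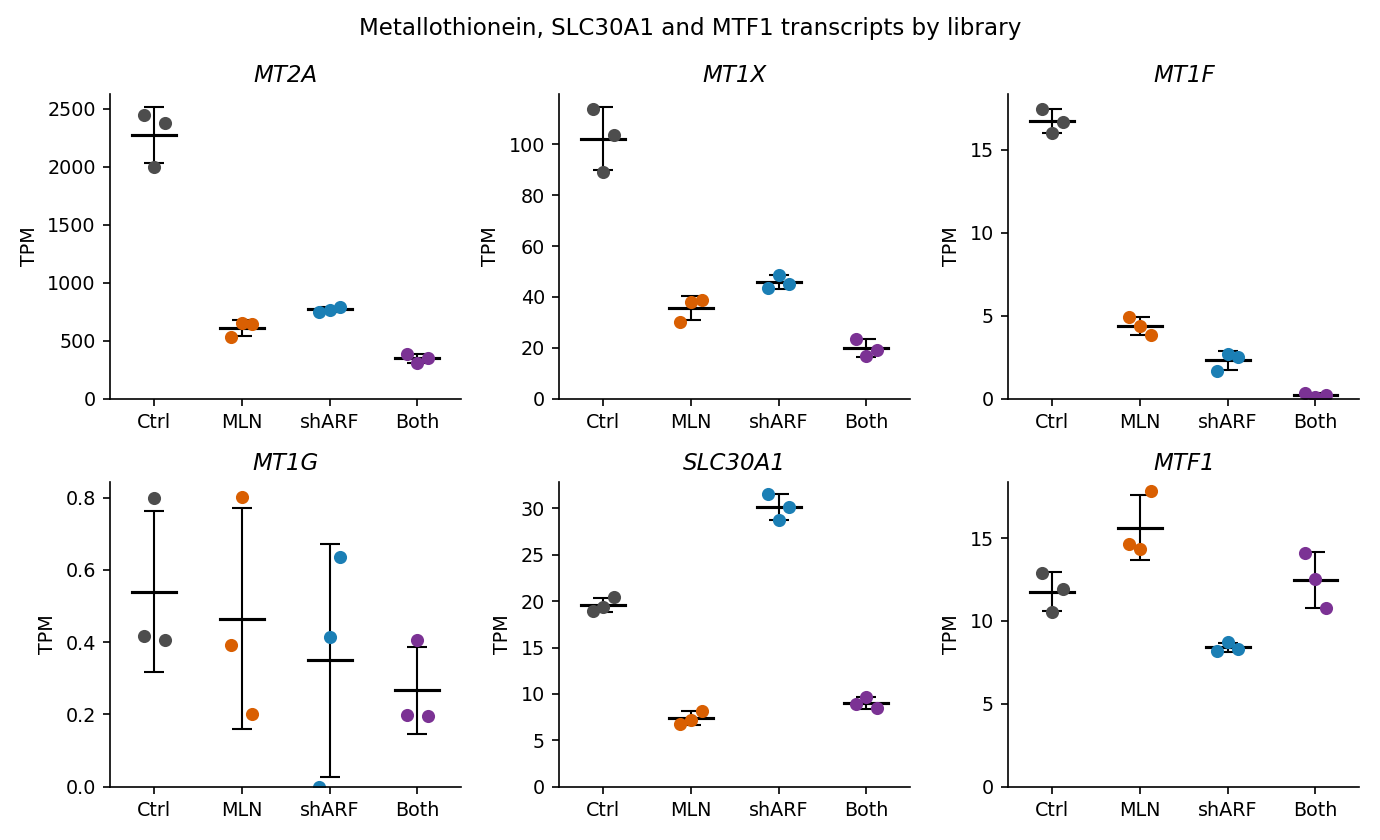
Level in TPM (linear axes from 0) of the 6 members that were tested, in each of the 12 libraries; points are libraries, long bars the mean of 3 and whiskers 1 SD. MT2A, MT1X and MT1F are highest in Ctrl and lowest in Both, SLC30A1 is highest in shARF at 28.7 to 31.5 TPM, and MT1G overlaps across conditions below 1 TPM.

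Within Ctrl the order of the levels was MT2A, MT1X, SLC30A1, MT1F, MTF1 and MT1G, and no neighbours in this order overlapped between libraries. MT1G was above MT1E in the same way, and MT1E and MT1M overlapped. In Both, MTF1 (12.5 ± 1.69 TPM) stood above SLC30A1 (9.00 ± 0.651 TPM), and MT1G and MT1F overlapped at 0.266 ± 0.120 and 0.210 ± 0.120 TPM. MT1F had thus gone from a level near that of SLC30A1 to one near that of MT1G.

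The 6 metallothioneins summed to 2393 ± 255 TPM in Ctrl, to 651 ± 71.5 TPM in MLN, to 819 ± 24.2 TPM in shARF and to 368 ± 39.4 TPM in Both (SD, n = 3). As ratios of these means, the sum was 3.67-fold lower in MLN than in Ctrl, 2.92-fold lower in shARF than in Ctrl, 2.23-fold lower in Both than in shARF and 1.77-fold lower in Both than in MLN. The sum was 0.210% to 0.258% of all transcripts in the Ctrl libraries and 0.0328% to 0.0407% in those of Both. MT2A made up 93.68% of it or more in every library, so the sum is close to a restatement of MT2A.

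The composition of the pool shifted within that sum. MT1X stood at 4.50 ± 0.147% of the MT2A level in Ctrl, at 5.82 ± 0.168% in MLN, at 5.94 ± 0.350% in shARF and at 5.70 ± 0.391% in Both. MT1F stood at 0.738 ± 0.0549% of MT2A in Ctrl and 0.729 ± 0.173% in MLN, but at 0.298 ± 0.0675% in shARF and 0.0584 ± 0.0293% in Both. Relative to MT2A, MT1F was therefore at a close level in the 2 wt conditions and lower in the Sh ARF cells. Parts of these transcripts are near-identical: 10.2% of the 50-base windows of MT2A, 18.0% of those of MT1X and 6.12% of those of MT1F occur in another metallothionein transcript, and 0 of the 100-base windows do. The read length is not given in the sources used here, so values of single paralogs, above all those of low level beside MT2A, are uncertain to that extent.

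**Figure D2:**
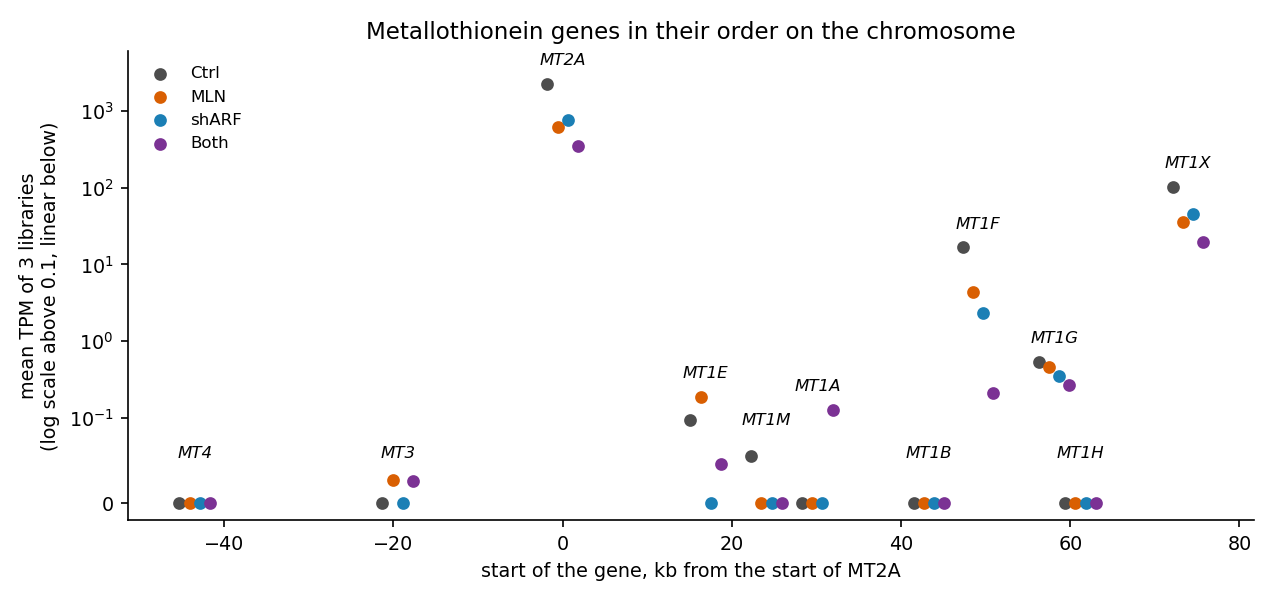
Mean TPM of 3 libraries for 11 metallothionein genes of the cluster (log axis above 0.1 TPM, linear below), plotted by the start of each gene in kb from the start of MT2A; colours are the 4 conditions and are set slightly apart sideways. MT2A, MT1F and MT1X, up to 73.9 kb apart, carry nearly all of the signal, and the genes between them are near or at 0.

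In PC3 cells without the hairpin, MLN4924 was followed by lower metallothionein and exporter transcripts. Of the 6 members tested, 4 fell (MT2A, MT1F, MT1X and SLC30A1), 1 rose (MTF1) and 1 (MT1G) was not called. Over all 19932 genes tested, 29.4% were called lower and 32.2% higher, so a call in either direction was common. The members were chosen with earlier results of these data known, so their counts beside these shares are only a description. The median log2 fold change was −1.46 over the 6 members and 0.05 over all genes. All fold changes are on the log2(TPM + 0.1) scale, which understates the change of low genes, and a call means an adjusted p below 0.05.

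The decreases after the drug ran from 2.64-fold to 3.77-fold. MT1F fell by 1.91 on the log2 scale (SE 0.105, adjusted p = 3.12e-05) and MT2A fell by 1.90 (SE 0.124, adjusted p = 5.58e-05), or 3.77-fold and 3.72-fold. MT1X fell by 1.52 on the log2 scale (SE 0.132, adjusted p = 0.000168), or 2.87-fold. SLC30A1 fell by 1.40 (SE 0.0883, adjusted p = 4.9e-05), or 2.64-fold. MTF1 rose by 0.40 (SE 0.118, adjusted p = 0.025), and that call was lost without Ctrl replicate 2 (adjusted p = 0.0744), Ctrl replicate 3 (0.0658) or MLN replicate 5 (0.0601) and with no filter on low values (0.051). MT1G differed by −0.27 (SE 0.468, adjusted p = 0.647), a sign that turned without Ctrl replicate 2 or MLN replicate 5.

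The hairpin without drug gave a mixed picture, with metallothioneins and exporter moving apart. Again 4 of the 6 members fell, but now MT2A, MT1F, MT1X and MTF1, while SLC30A1 rose, against 20.4% of all genes lower and 21.0% higher. MT1F fell by 2.83 on the log2 scale (SE 0.192, adjusted p = 0.000427), or 7.13-fold. MT2A fell by 1.56 (SE 0.0909, adjusted p = 0.000285) and MT1X by 1.15 (SE 0.102, adjusted p = 0.000935). SLC30A1 rose by 0.62 (SE 0.0485, adjusted p = 0.000645), or 1.54-fold, with every shARF library above every Ctrl library. MTF1 fell by 0.48 (SE 0.0861, adjusted p = 0.0095). The median over the 6 members was −1.02, and over all genes 0. This comparison uses the same Ctrl libraries as the one of the drug in wt cells, so the levels of those 3 libraries enter both. With a block for the replicate numbers of the column names, all these member calls were lost (limma, adjusted p from 0.0607 for MT2A to 0.0939 for MTF1).

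In the Sh ARF cells MLN4924 was again followed by lower levels of MT2A, MT1F, MT1X and SLC30A1 and a higher level of MTF1, 4 and 1 of the 6 tested, against 32.8% of all genes lower and 28.3% higher. SLC30A1 fell by 1.73 (SE 0.0698, adjusted p = 1.05e-05), or 3.32-fold, the smallest adjusted p among the members. MT1X fell by 1.21 (SE 0.125, adjusted p = 0.00036) and MT2A by 1.15 (SE 0.0829, adjusted p = 8.07e-05), or 2.31-fold and 2.22-fold. MTF1 rose by 0.55 (SE 0.107, adjusted p = 0.00515), and here the call was kept in each of the 13 other settings tried. MT1F fell by 3.01 (SE 0.374, adjusted p = 0.000788), with a size that rests on the pseudocount: −1.44 at a pseudocount of 1 and −3.55 at 0.01. The median over the 6 members was −1.18, and over all genes −0.04.

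Under the drug, the hairpin went with still lower levels of 3 metallothioneins. Between Both and MLN, MT2A, MT1F and MT1X fell and 0 members rose (limma; 1, SLC30A1, at an unadjusted p below 0.05), against 20.6% of all genes lower and 11.8% higher. With median-of-ratios scaling the split over all genes turned to 3663 higher and 3466 lower, from 2352 and 4112, and 1 member, SLC30A1, was called higher. MT1F fell by 3.93 (SE 0.336, adjusted p = 0.00104), between −2.15 and −4.50 over the pseudocounts. MT1X fell by 0.84 (SE 0.154, adjusted p = 0.0103) and MT2A by 0.81 (SE 0.117, adjusted p = 0.00467), or 1.79-fold and 1.76-fold. SLC30A1 differed by 0.29 (95% confidence interval 0.04 to 0.54, adjusted p = 0.0812; with the other scaling 0.38, adjusted p = 0.0211) and MTF1 by −0.33 (interval −0.65 to 0.00, adjusted p = 0.114).

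**Figure D3:**
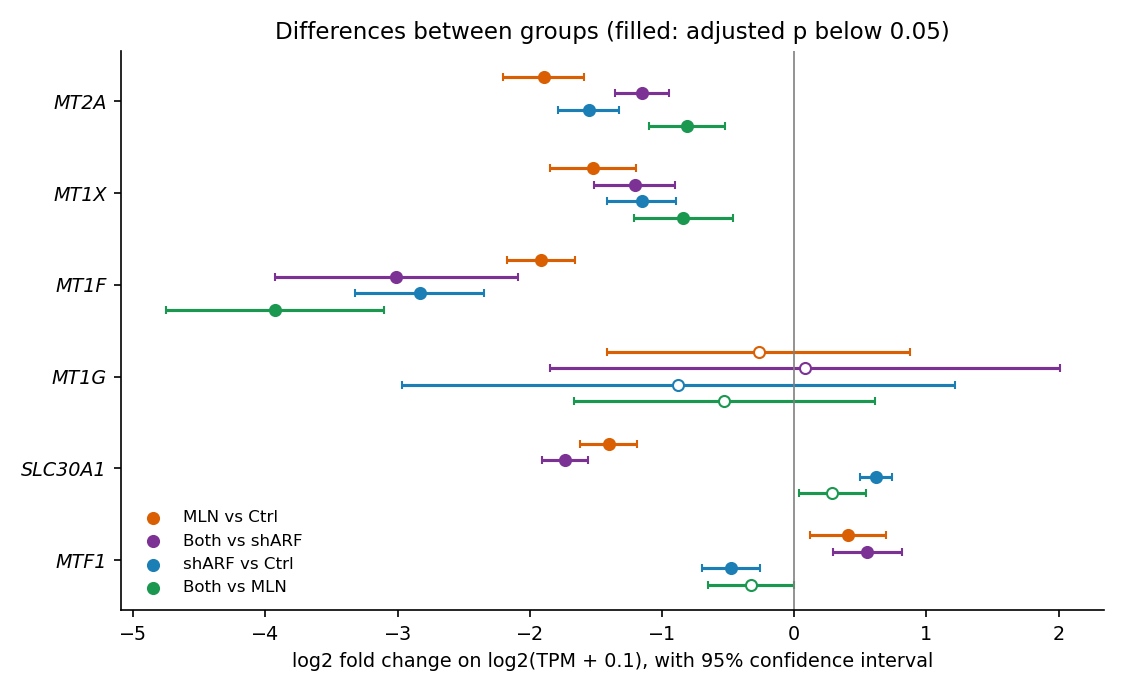
Log2 fold change on log2(TPM + 0.1) of the 6 members tested in the 4 pairwise comparisons, with 95% confidence intervals from limma; filled points have an adjusted p below 0.05. MT2A, MT1X and MT1F lie left of 0 in every comparison, whereas SLC30A1 lies left after the drug (−1.40 and −1.73) and right with the hairpin alone (0.62).

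Whether the drug response differed between the genotypes was tested as an interaction on all 12 libraries, the change in Sh ARF cells minus that in wt cells. It was positive and called for 1 member, MT2A, at 0.74 (SE 0.15, adjusted p = 0.00308), against 11.2% of all genes positive and 17.1% negative; with median-of-ratios scaling that split was 3216 positive and 2790 negative, and MT2A kept its call. MT2A thus fell less on the log2 scale in the Sh ARF cells, −1.15 from 771 TPM, than in wt cells, −1.90 from 2273 TPM. For MT1X the difference was 0.31 (95% confidence interval −0.09 to 0.72, adjusted p = 0.234). MT1F gave −1.09 (SE 0.383, adjusted p = 0.0508), but its sign turned to 0.28 at a pseudocount of 1, so no direction can be given. SLC30A1 gave −0.33 (interval −0.59 to −0.07, adjusted p = 0.0566), on the called side at a pseudocount of 1, at a filter of 1 TPM and without MLN replicate 1 or Both replicate 3. MTF1 gave 0.15 (interval −0.21 to 0.51, adjusted p = 0.543).

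Zinc transport has many other parts. The SLC30 (ZnT) family moves zinc out of the cytosol, mostly into vesicles and organelles, and 7 of its 9 other members were tested. After the drug in wt cells 3 of the 7 rose and 2 fell, where 32.2% of all genes rose and 29.4% fell, and in Sh ARF cells 4 rose and 2 fell, where 28.3% and 32.8% did. In wt cells 2 of the rises, SLC30A3 and SLC30A10, started from 0.0935 and 0.0352 TPM, and the count was 1 at a filter of 1 TPM. The lower count there was 1 without Ctrl replicate 1, without MLN replicate 1, 2 or 5, and with the replicate block. SLC30A9, a mitochondrial zinc transporter, fell with SLC30A1 in both genotypes: it went from 29.8 to 9.69 TPM in wt cells (log2 fold change −1.61, SE 0.0577, adjusted p = 8.44e-06) and from 29.8 to 11.2 TPM in Sh ARF cells (−1.41, SE 0.0635, adjusted p = 1.5e-05). With the hairpin alone it differed by 0.00 (95% confidence interval −0.08 to 0.08), where SLC30A1 rose. SLC30A6, which acts in the early secretory pathway with SLC30A5, rose by 0.59 and 0.70 in the 2 genotypes (adjusted p = 0.000163 and 0.000903). SLC30A7, a Golgi transporter, responded more positively in Sh ARF cells than in wt cells, by 0.44 (adjusted p = 0.00424). SLC30A3, which like SLC30A10 lay below the 1 TPM set for naming and was chosen after its values were seen, went from 0.0935 to 2.47 TPM in wt cells and from 0.114 to 0.955 TPM in Sh ARF cells.

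The SLC39 (ZIP) family brings zinc into the cytosol, and 12 of its 14 members were tested. After the drug 6 fell and 3 rose in wt cells, and 5 fell and 3 rose in Sh ARF cells, with medians of −0.34 and −0.11. Among all genes 29.4% fell and 32.2% rose in wt cells, and 32.8% and 28.3% in Sh ARF cells. Over the other settings 0 to 3 rose and 4 to 7 fell in wt cells, and 3 to 4 rose and 5 to 6 fell in Sh ARF cells. The share that rose in Sh ARF cells was thus near that of all genes, and no difference from all genes was tested. SLC39A11 fell most among the named ZIP genes, from 32.9 to 7.25 TPM in wt cells (log2 fold change −2.16, SE 0.0861, adjusted p = 1.13e-05) and from 20.6 to 7.48 TPM in Sh ARF cells (−1.47, SE 0.161, adjusted p = 0.000461), and the difference between these responses was called (0.70, adjusted p = 0.0148). SLC39A1, a plasma membrane importer with a high level in these cells, rose from 189 to 330 TPM in wt cells and from 203 to 267 TPM in Sh ARF cells (adjusted p = 0.00169 and 0.00406). Its call in wt cells was lost with the replicate block (limma, 0.68, adjusted p = 0.0934). SLC39A10 went with SLC30A1 in direction, since it fell after the drug by 0.57 and 0.39 (adjusted p = 0.000301 and 0.0115) and rose with the hairpin alone by 0.49 (adjusted p = 0.000971). SLC39A8, which carries manganese as well as zinc, fell by 0.67 in wt cells (adjusted p = 0.000151) and differed by 0.01 in Sh ARF cells (95% confidence interval −0.15 to 0.18), and the difference of the responses was called at 0.68 (adjusted p = 0.000246).

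**Figure D4:**
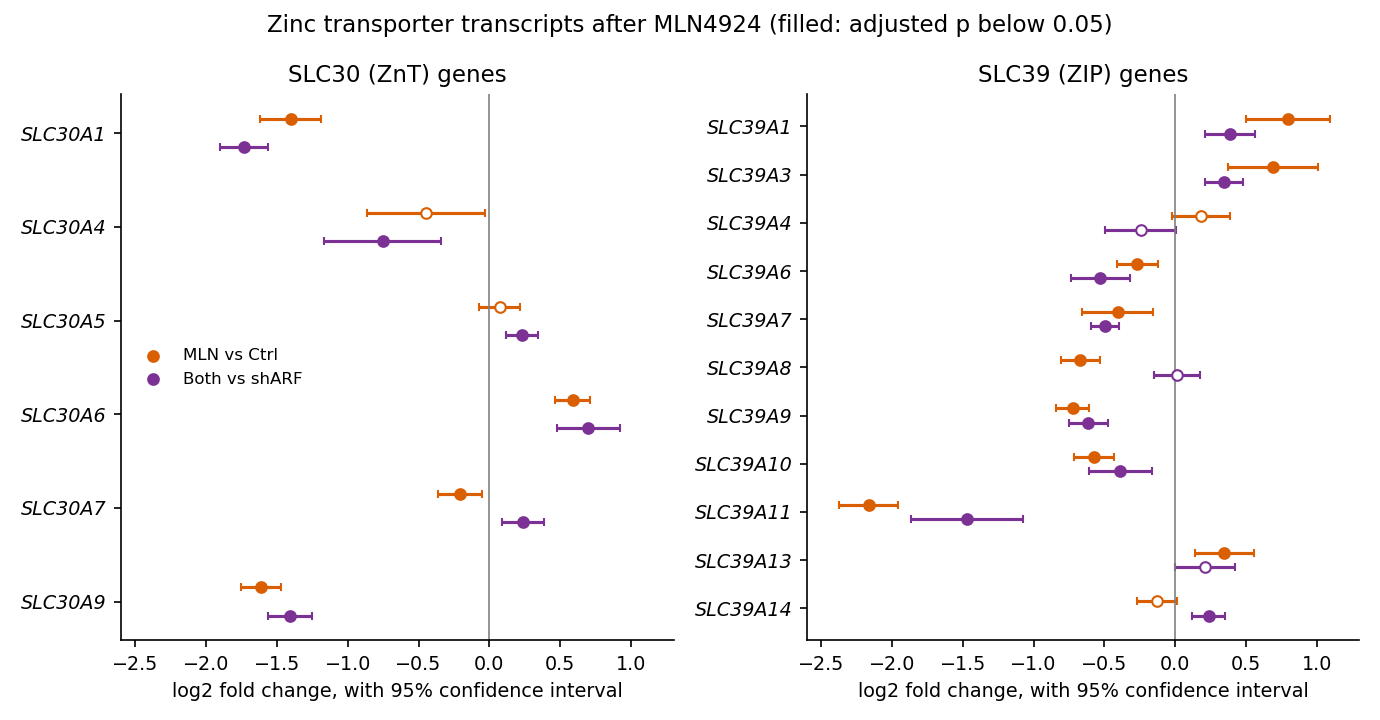
Log2 fold change on log2(TPM + 0.1) after MLN4924 in wt cells (MLN vs Ctrl) and in Sh ARF cells (Both vs shARF) for the SLC30 and SLC39 genes averaging 1 TPM or more, with 95% confidence intervals; filled points have an adjusted p below 0.05. SLC30A1 and SLC30A9 lie at −1.40 to −1.73 on the exporter side, and SLC39A11 at −2.16 and −1.47 on the importer side.

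Copper also binds metallothioneins. Of 8 copper handling genes, 4 rose and 1 fell after the drug in wt cells, and 3 rose and 2 fell in Sh ARF cells, beside 32.2% and 29.4% of all genes in wt cells and 28.3% and 32.8% in Sh ARF cells. The lower count in wt cells was 0 without Ctrl replicate 1, Ctrl replicate 2 or MLN replicate 1. It was 2 without the trend or with 12 libraries in one fit. With the replicate block 1 rose and 0 fell in wt cells. SLC31A1, the copper importer CTR1, rose in both, by 0.60 (adjusted p = 9.52e-05) and 0.85 (adjusted p = 0.000124). SOD1, the copper and zinc superoxide dismutase, rose from 312 to 458 TPM in wt cells and from 437 to 513 TPM in Sh ARF cells (adjusted p = 0.000343 and 0.00789). Its call in wt cells was lost with the replicate block (limma, adjusted p = 0.0598). COX17, a copper chaperone of mitochondria, rose by 0.61 with the hairpin alone (adjusted p = 0.00775).

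Genes that share stress stimuli with metallothioneins moved the other way under the drug. All 6 genes of a short list of metal and oxidative stress genes (HMOX1, GCLM, GCLC, TXNRD1, SLC7A11 and SRXN1) rose in wt cells and all 6 rose in Sh ARF cells, with medians of 1.61 and 2.38, where 32.2% and 28.3% of all genes rose. HMOX1, heme oxygenase 1, which heavy metals induce, was at 74.1, 64.6 and 72.0 TPM in Ctrl and at 169, 217 and 237 TPM in MLN. In the Sh ARF cells it was at 49.9, 46.6 and 46.5 TPM with DMSO and at 402, 406 and 351 TPM with the drug. Its rise was 1.55 in wt cells (SE 0.134, adjusted p = 0.000165) and 3.01 in Sh ARF cells (SE 0.0686, adjusted p = 1.92e-06), and the difference between the genotypes was 1.46 (adjusted p = 3.51e-05). SRXN1, sulfiredoxin, rose from 144 to 1385 TPM and from 160 to 1745 TPM. With the hairpin alone 2 of the 6 fell and 0 rose by limma (1, SRXN1, at an unadjusted p below 0.05), beside 20.4% and 21.0% of all genes.

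Glucocorticoid-responsive genes moved in both directions. Of 6 tested, NR3C1 (the receptor) and 5 targets, 4 rose and 1 fell after the drug in wt cells, and 3 rose and 1 fell in Sh ARF cells, beside 32.2% and 29.4% of all genes in the first and 28.3% and 32.8% in the second. The higher count in wt cells was 1 with the replicate block. TSC22D3 (GILZ) rose by 1.46 and 1.45 in the 2 genotypes (adjusted p = 7.5e-06 and 1.55e-05). SGK1, a kinase, fell from 58.3 to 16.7 TPM after the drug in wt cells and to 3.88 TPM with the hairpin (log2 fold changes −1.80 and −3.88, adjusted p = 5.92e-06 and 8.46e-06), but it rose after the drug in Sh ARF cells, by 1.00 (adjusted p = 0.000208). FKBP5, a chaperone partner of the receptor, rose both after the drug in wt cells and with the hairpin, by 0.64 and 1.15 (adjusted p = 0.00184 and 0.000441). Both of these calls were lost with the replicate block (limma, adjusted p = 0.0977 and 0.0607). After the drug in Sh ARF cells FKBP5 fell by 0.26 (adjusted p = 0.0193), a call lost without shARF replicate 1 (adjusted p = 0.0689), shARF replicate 5 (0.0598) or Both replicate 2 (0.0531), and the responses of the genotypes differed by −0.90 (adjusted p = 0.000283).

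The neighbourhood of the cluster was read from 13 protein-coding genes within 500 kb, chosen by position after values had been seen, of which 8 were tested. After the drug in wt cells 2 were higher and 4 lower, between −0.69 and 1.71, with a median of −0.08, beside 32.2% and 29.4% of all genes. With the hairpin alone 5 were higher and 1 lower, between −1.16 and 1.68, beside 21.0% and 20.4%. BBS2, 25.9 kb before the first gene, changed by −0.69 after the drug (adjusted p = 6.97e-05) and by −0.10 with the hairpin (adjusted p = 0.0844). NUP93, 45.9 kb after the last, changed by −0.22 (adjusted p = 0.0384) and 0.28 (adjusted p = 0.0186). The nearest tested gene on either side thus changed by less than MT2A, MT1X or MT1F, but farther out NLRC5 rose by 1.71 and 1.68 (adjusted p = 3.67e-05 and 0.000617), and CPNE2 fell with the hairpin by 1.16 (adjusted p = 0.000229).

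Across the 12 libraries, log2(TPM + 0.1) of MT2A had a Pearson r of 0.99 with MT1X, 0.90 with MT1F and 0.55 with SLC30A1. SLC30A1 had an r of −0.83 with MTF1. These values are a description, since the 12 points share 4 conditions. Of 14663 genes averaging 1 TPM or more, those most like MT2A were TMEM132A (0.997), TNS3 (0.993), NFATC2 (0.992), MT1X (0.992) and STX1A (0.991). TMEM132A stood at 147 ± 20.7 TPM in Ctrl, at 25.1 ± 2.05 TPM in MLN, at 32.8 ± 2.13 TPM in shARF and at 12.1 ± 0.879 TPM in Both. The genes most like SLC30A1 were LARS2 (0.997), HNRNPM (0.996), PM20D2 (0.996), PIP4K2B (0.996) and CADPS2 (0.995). HNRNPM, a splicing factor, stood at 187 ± 5.66 TPM in Ctrl, at 80.9 ± 7.41 TPM in MLN, at 265 ± 17.6 TPM in shARF and at 94.4 ± 3.80 TPM in Both. MT1X was the only other member among the 5 genes most like MT2A, and no member was among those most like SLC30A1.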

How the data were processed

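RNA-seq was read in 12 libraries of PC3 cells from 1 table, 3 for each of the 4 conditions. The labels list 1 sample per condition. The 12 columns were assigned to these samples by column name, and M4 in those names was read as MLN4924. Adapter trimming, mapping to hg38 and quantification on an Ensembl annotation of GRCh38 were done by the authors in CLC Genomics Workbench, and the values they deposited are TPM. The authors made their own comparisons with DESeq2, which are not used here. Strandedness and depth are not given in the sources used here.

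From the deposited TPM, log2(TPM + 0.1) was fitted for the 19932 genes averaging 0.1 TPM or more, with limma 3.58.1 in R 4.3.3 (eBayes with trend), on the 6 libraries of each comparison, or on 12 for the interaction, with Benjamini-Hochberg adjustment over all genes. The fit was also run on simulated data, with changes larger than the MT2A interaction in genes above 1 TPM. That run does not bear on smaller changes or lower levels. The text names all members, CDKN2A, listed genes averaging 1 TPM or more and the 5 most alike by Pearson r. Members and lists were chosen with earlier results of these data known. Positions are from GENCODE v44 (GRCh38). Alternatives were pseudocounts of 1 and 0.01, a filter at 1 TPM, no filter, median-of-ratios scaling, no trend, 12 libraries in one fit, a replicate block and each library left out. Of the marker genes examined, 1 is not reported here.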

Additional observations from a re-analysis of the deposited data

Results flagged for a closer look

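The response of MT2A to MLN4924 differed between the genotypes: the change in Sh ARF cells minus that in wt cells was 0.74 on the log2(TPM + 0.1) scale (limma interaction, SE 0.15, adjusted p = 0.00308). MT2A was lower with the drug in 3 of 3 libraries in either genotype. Over the 19 other settings the value lay between 0.65 and 0.84, with an adjusted p of 0.000866 to 0.0532. The same difference was not called for MT1X (0.31, adjusted p = 0.234).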

How the results depend on the processing

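In the 21 alternative settings, the lower calls of MT2A, MT1X, MT1F and SLC30A1 after the drug and of MT2A, MT1X and MT1F in Both vs MLN were kept in each one run, and the 4 ratios of the summed metallothioneins moved by less than 1 SD. The sources do not describe the replicate numbers in the column names. Deviations of same-numbered libraries correlated between −0.147 and 0.0584. Libraries with different numbers were not compared in this way, so these values cannot show whether the numbers pair libraries. With the replicate block, which 2 shared numbers allow in 2 comparisons with 1 residual degree of freedom, MLN vs Ctrl had 0 members higher, with 3047 genes higher and 2661 lower. For shARF vs Ctrl the block left 0 members higher, 0 lower, 0 genes higher and 0 lower by limma, with 7757 genes at an unadjusted p below 0.05, the 5 members called without it at an adjusted p of 0.0607 to 0.0939 and MT1G at 0.417. For the interaction it left 0 members positive (MT2A 0.78, adjusted p = 0.0532) and 1612 genes negative. Both vs shARF and Both vs MLN share 1 number each and could not be fitted with the block.

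Members higher in MLN vs Ctrl numbered 0 with no filter, and 0 to 1 with a library left out. In Both vs MLN, 1 member was higher with median-of-ratios scaling (with 3663 genes) and 1 with 12 libraries in one fit (SLC30A1, adjusted p = 0.0166; MTF1 was then lower, adjusted p = 0.0421). Leaving out a library there gave 1324 to 2092 genes higher and 2613 to 3831 lower, the fewest higher without Both replicate 2 and the fewest lower without MLN replicate 2. Members with a negative interaction numbered 1 at a pseudocount of 1, 1 at 0.01, 2 at a filter of 1 TPM and 0 to 1 with a library left out.

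The sign of MT1G turned with a library left out (range −0.68 to 0.11 in MLN vs Ctrl, −0.79 to 0.64 in Both vs shARF, −0.53 to 0.91 for the interaction), at a pseudocount of 1 in Both vs shARF (−0.066) and with the replicate block for the interaction (−0.084). SLC39A8 in Both vs shARF lay between −0.048 and 0.073 with a library left out, negative without Both replicate 3, and MT1F for the interaction turned to 0.28 at a pseudocount of 1. The cause was not tested. Of 1522 fold changes recomputed, 1446 kept direction and side of the threshold; SLC30A7 in MLN vs Ctrl lost its call without any 1 of 5 libraries. TPM carries no depth, so the precision of values below 1 TPM is unknown.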
